A study of Mus musculus with 2254 samples.

Results

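The genes of cholesterol synthesis, sterol sensing, uptake and export were followed through single cells of the adult mouse brain. They were 31 of the 30950 gene rows, chosen by symbol from textbook knowledge of the pathway: 18 genes of synthesis, 4 of sterol sensing and 9 of uptake, transport, storage and export. All 31 were present. The KO group was 1127 brain cells of adult C57BL/6 mice that lacked Notch3, on plates 043, 467 and 471. The WT group was 1127 brain cells of adult C57BL/6 mice with Notch3 status WT, on plates 044, 468 and 469. Both groups carried SM22-Cre and Rosa26-stop-tdTomato, so a smooth muscle promoter drove the recombinase that switched on the red reporter. A cell that used this promoter earlier in life keeps the reporter, and the sort gates were not described in the sources used here. Each cell was sorted into a well and sequenced by Smart-seq2, which reads full-length cDNA of polyadenylated RNA. Since the labels named no animal or culture, there was 1 sample for each genotype and no test between genotypes was possible. Plates are given as separate values, and the SD over plates is a description.

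Cells build cholesterol from acetyl units by way of mevalonate, squalene and lanosterol. When membranes are low in sterol, the escort protein Scap carries the transcription factor encoded by Srebf2 out of the endoplasmic reticulum and the synthesis genes are switched on, while Insig proteins hold the pair back when sterol is plentiful. Sterol surplus acts through the liver X receptors Nr1h2 and Nr1h3, which switch on the export pumps Abca1 and Abcg1 and the lipoprotein Apoe. In the adult brain, which is closed to lipoproteins of the blood, cholesterol is made locally, and astrocytes are known as a main source of the particles that carry it to other cells.

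Cells held 49473 to 763059 counts, with a median of 291872, and 2252 of 2254 passed the filter of 50000 counts and 1000 detected genes. A cell was put in a class when 1 of 8 markers reached 100 CPM (a gene's counts divided by all counts of the library and scaled to the same total) and was at least 5 times each of the others. The markers were Myh11 for smooth muscle, Kcnj8 for pericytes, Cldn5 for endothelium, Dcn for fibroblasts, Ccdc153 for ependyma, Aqp4 for astrocytes, C1qb for microglia or macrophages and Mog for oligodendrocytes. This gave 1133 smooth muscle-like, 255 astrocyte-like, 172 endothelial-like, 165 fibroblast-like, 44 microglia-like, 32 ependymal-like, 17 oligodendrocyte-like and 16 pericyte-like cells, and 418 cells stayed without a class. The other markers of each class's own list, such as Acta2 and Tagln in smooth muscle, were at 10 CPM or more in each of the 5 classes compared below. Notch3 itself stood at 69.0, 106 and 117 CPM on the KO plates and at 197, 768 and 1131 CPM on the WT plates in smooth muscle-like cells. The KO cells thus still held Notch3 reads, and WT plate 044 lay far below the other WT plates.

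Of the 5 classes with at least 10 cells on both plate 468 and plate 469, astrocyte-like cells had the highest level of 16 of the 18 synthesis genes. For 15 of these 16 both astrocyte-like values lay above all values of the other 4 classes, a position that 11.8% of all 11845 genes tested held in astrocyte-like cells. These plates are WT, with 166 and 86 astrocyte-like cells, 26 and 18 microglia-like, 51 and 104 endothelial-like, 17 and 11 fibroblast-like and 34 and 59 smooth muscle-like cells. Msmo1, a monooxygenase that removes methyl groups from lanosterol products, stood at 1574 and 1062 CPM in astrocyte-like cells, against 90.1 and 10.7 CPM in the smooth muscle-like cells. Fdft1, the squalene synthase that commits carbon to sterols, stood at 461 and 405 CPM in astrocyte-like cells, against 37.1 and 32.4 CPM in smooth muscle-like cells. Neither pair of groups overlapped. Sqle, the squalene epoxidase, was at 419 and 323 CPM in astrocyte-like cells, against 21.8 and 23.4 CPM in smooth muscle-like cells. Dhcr7, a reductase of the final steps, was at 339 and 300.1 CPM in astrocyte-like cells, against 6.35 and 3.94 CPM in smooth muscle-like cells. Hsd17b7, a ketosteroid reductase of the demethylation complex, was at 63.4 and 80.1 CPM in astrocyte-like cells, against 0.115 and 0.272 CPM in smooth muscle-like cells. The enzymes before and after squalene were thus high in the same class.

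Against smooth muscle-like cells of the same plate, 13 of the 18 synthesis genes were at least 2-fold higher in astrocyte-like cells on both plates. Over all 31 members the count was 19 higher and 1 lower, beside 19.1% and 17.7% of 11105 genes tested. The median difference of the synthesis genes was 2.85 on the log2(CPM + 1) scale, beside -0.01 for all genes tested. The largest differences were those of Hsd17b7 (5.92 ± 0.10, SD, n = 2 plates), Dhcr7 (5.73 ± 0.28) and Msmo1 (5.31 ± 1.69). The log2(CPM + 1) scale understates the difference of Hsd17b7, which was under 1 CPM in smooth muscle-like cells. The mevalonate pathway enzymes Hmgcs1, Mvk, Mvd and Idi1 were also called higher, as were Fdps, Cyp51, Tm7sf2 and Nsdhl. Acat2, Pmvk, Lss, Ebp and Sc5d did not reach 2-fold on both plates. Ebp, a sterol isomerase, was instead highest in microglia-like cells, at 99.5 and 93.7 CPM, against 42.3 and 18.4 CPM in smooth muscle-like cells. The 11 oligodendrocyte-like cells of plate 468, outside the 5 classes, held more Ebp, at 56.9 against 43.1 CPM per kilobase of exon. Fdps stood at 31.4 CPM per kilobase in these oligodendrocyte-like cells, against 23.8 in astrocyte-like cells of that plate.

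**Figure D1:**
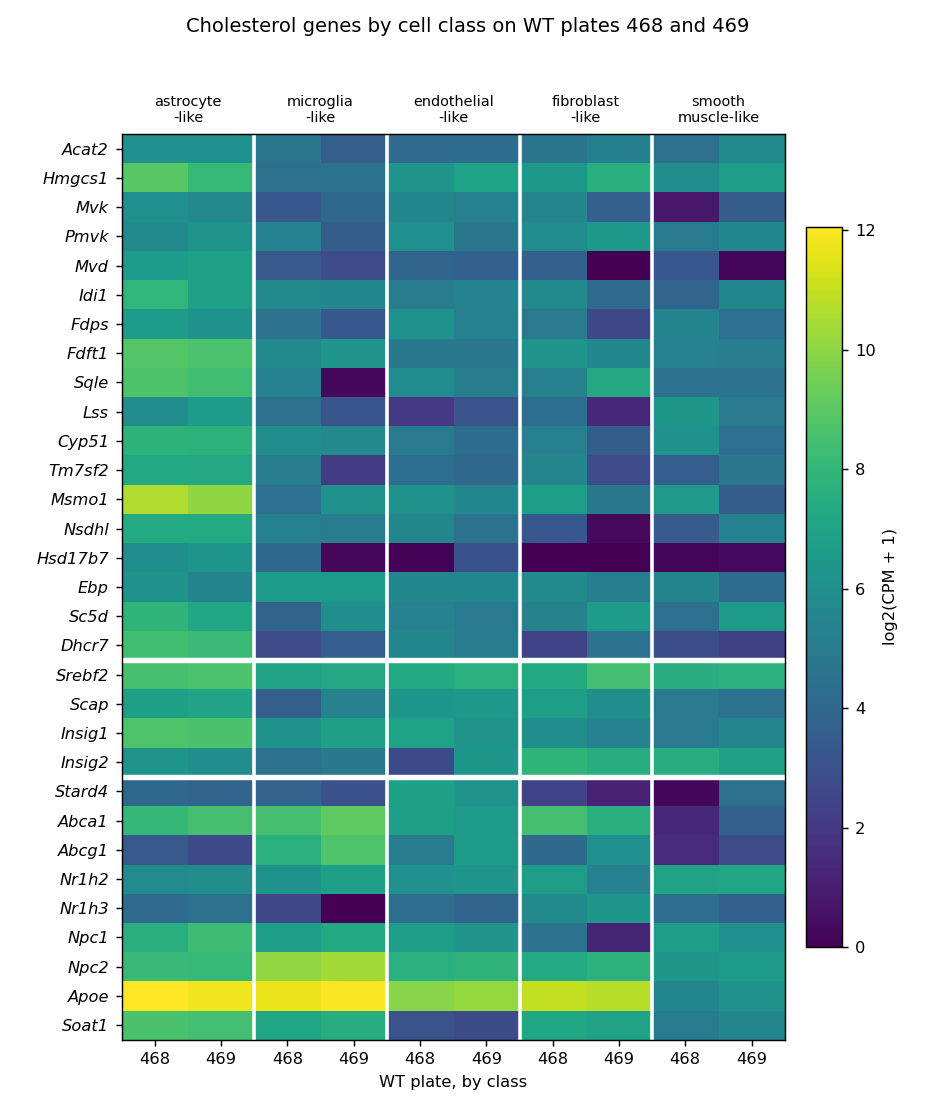
Level of each of the 31 members as log2(CPM + 1), by colour, in 5 classes on WT plates 468 and 469; white lines part synthesis, sterol sensing, and uptake and export genes. The synthesis block is brightest in the astrocyte-like columns, while Abcg1 and Npc2 are brightest in the microglia-like columns.

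Between genes, levels can be compared only per kilobase of exon. On that scale Msmo1 led the synthesis genes of astrocyte-like cells at 214 CPM per kb, with Fdft1 at 102 and Hmgcs1 at 82.2 CPM per kb, and Lss was the lowest at 7.42 CPM per kb. In smooth muscle-like cells the order was different. Pmvk, the phosphomevalonate kinase, led at 29.3 CPM per kb over 6 plates, Hmgcs1 followed at 21.0 CPM per kb, and Msmo1 stood at 8.31 CPM per kb. With every cell thinned to 50000 counts, the median astrocyte-like WT cell had reads of 9 of the 18 synthesis genes, and 56.3% of these 252 cells had 9 or more. The median was 7 in KO and 4.5 in WT fibroblast-like cells, 3 in WT microglia-like cells, and 3 in KO and 2 in WT smooth muscle-like cells. Unthinned medians were 9 in astrocyte-like cells, 8 in KO and 6 in WT fibroblast-like cells, 4 in microglia-like cells and 3 in smooth muscle-like cells of both genotypes. At equal depth, too, astrocyte-like cells had reads of more synthesis genes than smooth muscle-like cells.

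The 4 sensing genes did not share 1 order. Srebf2, Scap and Insig1 were highest in astrocyte-like cells, and Insig2 was highest in fibroblast-like cells. Insig1 stood at 422 and 384 CPM in astrocyte-like cells, against 30.4 and 44.5 CPM in smooth muscle-like cells, a log2 difference of 3.42 ± 0.48 (SD, n = 2 plates). Insig2, the second protein of the same retention step, stood at 73.6 and 62.3 CPM in astrocyte-like cells, at 238 and 181 CPM in fibroblast-like cells and at 183 and 119 CPM in smooth muscle-like cells. The fibroblast-like and smooth muscle-like values of Insig2 overlapped by 1 value, 183 against 181 CPM. Scap was at 114 and 129 CPM in astrocyte-like cells, against 29.1 and 22.2 CPM in smooth muscle-like cells, with no overlap. Srebf2 differed less, at 360 and 395 CPM in astrocyte-like cells, against 183 and 205 CPM in smooth muscle-like cells.

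The stretches before the start sites are shown for Hmgcs1 and Msmo1, synthesis genes high in astrocyte-like cells, and for Insig1 and Insig2, whose order over the classes differed. They are the 250 bases before the annotated start (RefSeq, GRCm38.p6), read in the direction of the gene, and for Insig2 the first of its listed starts. Capitals mark CCAAT, the box bound by NF-Y, on either strand (ATTGG on the other), and TCACNCCAC, a form of the sterol regulatory element.
Hmgcs1, chr13:119690101-119690350, plus strand: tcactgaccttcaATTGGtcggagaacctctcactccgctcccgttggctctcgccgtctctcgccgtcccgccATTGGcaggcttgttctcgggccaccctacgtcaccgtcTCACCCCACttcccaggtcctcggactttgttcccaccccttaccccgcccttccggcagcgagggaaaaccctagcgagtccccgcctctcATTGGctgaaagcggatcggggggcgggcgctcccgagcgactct
Msmo1, chr8:64733579-64733828, minus strand: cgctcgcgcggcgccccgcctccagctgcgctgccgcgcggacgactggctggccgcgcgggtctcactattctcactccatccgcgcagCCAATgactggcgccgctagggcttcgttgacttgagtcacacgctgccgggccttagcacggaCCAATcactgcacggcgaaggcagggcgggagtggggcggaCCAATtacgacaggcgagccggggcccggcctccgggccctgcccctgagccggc
Insig1, chr5:28071162-28071411, plus strand: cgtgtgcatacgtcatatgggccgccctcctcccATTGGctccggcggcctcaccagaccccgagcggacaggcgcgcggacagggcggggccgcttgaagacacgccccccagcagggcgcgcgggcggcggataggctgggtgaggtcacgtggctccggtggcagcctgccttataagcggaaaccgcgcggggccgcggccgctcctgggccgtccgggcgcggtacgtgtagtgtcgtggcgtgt
Insig2, chr1:121332590-121332839, minus strand: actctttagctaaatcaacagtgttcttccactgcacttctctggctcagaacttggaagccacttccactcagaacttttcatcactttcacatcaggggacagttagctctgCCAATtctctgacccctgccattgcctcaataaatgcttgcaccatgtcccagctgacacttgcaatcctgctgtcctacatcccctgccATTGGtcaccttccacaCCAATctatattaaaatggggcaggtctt
The 300 bases from 250 before to 50 after a start were listed for 25 of the 31 members, and CCAAT or its complement was found in 19 of these. It was found in 14 of 15 synthesis genes, 3 of 4 sensing genes and 2 of 6 uptake and export genes, and in 41.1% of all 27025 genes with a listed window. TCACNCCAC on either strand was found in Hmgcs1 and in no other of the 25, beside 1.44% of all genes. The GC box GGGCGG was found in 21 of the 25, beside 38.2% of all genes. In the stretches shown no marked motif overlapped another. Insig1 held CCAAT or its complement at 216 bases before the start, and Insig2 at 136, 46 and 29 bases before it.

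No single class led the uptake and export genes, of which 3 of 9 were highest in astrocyte-like and 3 of 9 in microglia-like cells. Over all 31 members, 20 were clear highest (both plates above every other class) and 0 clear lowest in astrocyte-like cells, beside 11.8% and 7.95% of all genes. In microglia-like cells 4 were clear highest and 3 clear lowest, near the shares of all genes (11.2% and 13.2%). In endothelial-like cells Stard4 was clear highest and Fdft1 and Soat1 clear lowest (7.84% and 2.09%). Fibroblast-like cells, 17 and 11 on these plates, had Nr1h3 clear highest and Nsdhl, Hsd17b7 and Npc1 clear lowest (7.55% and 3.66%). On plates 043, 467, 471 and 044 Hsd17b7 and Nsdhl were instead higher than in smooth muscle-like cells. Hsd17b7 stood at 46.8, 45.4, 24.1 and 24.2 CPM in fibroblast-like cells, against 4.30, 9.73, 2.52 and 3.71 CPM. Nsdhl stood at 88.8, 35.0, 88.6 and 79.8 CPM, against 36.8, 13.9, 32.2 and 30.8 CPM. Of these plates, Npc1 was lower on plate 467 alone. In smooth muscle-like cells Nr1h2 was clear highest and Abca1, Npc2 and Apoe clear lowest (7.74% and 3.65%). Abca1, Abcg1 and Npc2 were among the 4 clear highest in microglia-like cells. Abca1, the pump that loads cholesterol onto lipoprotein, stood at 364 and 546 CPM in microglia-like cells, against 1.62 and 12.2 CPM in smooth muscle-like cells. The next classes were close, at 261 and 361 CPM in astrocyte-like and 359 and 189 CPM in fibroblast-like cells. Abcg1, which passes cholesterol to formed particles, stood at 202 and 421 CPM in microglia-like cells, against 1.73 and 6.29 CPM in smooth muscle-like cells. Npc2, which hands cholesterol over inside the lysosome, stood at 1090 and 1349 CPM in microglia-like cells, against 83.0 and 92.8 CPM in smooth muscle-like cells. The 3 genes did not overlap between these classes. The partner of Npc2 in the lysosomal membrane, Npc1, was highest in astrocyte-like cells instead, at 197 and 320 CPM, against 103 and 65.5 CPM in smooth muscle-like cells. Soat1, which esterifies cholesterol for storage, was also highest there, at 392 and 357 CPM in astrocyte-like cells, against 31.3 and 43.3 CPM in smooth muscle-like cells. The 11 oligodendrocyte-like cells of plate 468 were outside the 5 classes ranked. On that plate Npc1 stood at 53.9 CPM per kb in them, against 17.4 in astrocyte-like cells. Abcg1 stood at 78.0 CPM per kb in them, against 27.7 in microglia-like cells.

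Per kilobase Apoe was the most abundant member on every plate of the astrocyte-like, microglia-like, endothelial-like and fibroblast-like classes. In smooth muscle-like cells it led on the 3 KO plates, at 119, 68.9 and 74.0 CPM per kb, and on 0 of the WT plates, at 57.9, 21.4 and 32.6 CPM per kb. In CPM it stood at 4282 and 3587 CPM in astrocyte-like cells and at 3333 and 4024 CPM in microglia-like cells, which overlapped, against 45.8 and 69.8 CPM in smooth muscle-like cells. The endothelial-like values were 962 and 1152 CPM and the fibroblast-like ones 1959 and 1748 CPM. On the same plates the summed astrocyte marker list stood at 498 and 453 CPM in endothelial-like cells, at 1594 and 507 CPM in fibroblast-like cells and at 36.5 and 65.0 CPM in smooth muscle-like cells, and its part in the Apoe values was not tested. Stard4, a soluble sterol carrier, was highest in endothelial-like cells, at 110 and 75.9 CPM, against 0.115 and 21.2 CPM in smooth muscle-like cells. The nuclear receptors parted as well. Nr1h2 was highest in smooth muscle-like cells, at 122 and 141 CPM, and the 55.2 and 61.3 CPM of astrocyte-like cells were the lowest mean of the 5 classes. Nr1h3 was highest in fibroblast-like cells, at 51.6 and 79.2 CPM, against 18.7 and 12.5 CPM in smooth muscle-like cells.

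Compared with smooth muscle-like cells of the same plates, 7 members were called higher and 3 lower in microglia-like cells, beside 17.1% and 21.8% of 10679 genes tested. The 7 were Abca1, Abcg1, Npc2, Apoe, Soat1, Ebp and Insig1, and the 3 were Hmgcs1, Lss and Insig2. In endothelial-like cells 8 were higher and 2 lower, beside 14.5% and 13.2% of 10665 genes. These 8 were Abca1, Abcg1, Apoe, Npc2, Stard4, Scap, Mvk and Dhcr7, and the 2 lower were Soat1 and Lss. In fibroblast-like cells Abca1, Apoe and Soat1 were higher on all 6 plates and 0 were lower, beside 6.6% and 5.27% of 10902 genes. The fibroblast-like difference of Apoe was 4.14 ± 0.88 on the log2 scale (SD, n = 6 plates), that of Abca1 3.84 ± 1.78 and that of Soat1 1.70 ± 0.48. Abca1, Apoe and Soat1 were called higher in astrocyte-like, microglia-like and fibroblast-like cells, and Soat1 was called lower in endothelial-like cells. Abca1 and Apoe were thus called higher in all 4 classes set against smooth muscle-like cells. No share over all genes is given for this count. The 4 comparisons share the smooth muscle-like cells of plates 468 and 469, where both genes were clear lowest, so they are not independent. On plate 468 the smooth muscle-like value of Abca1 rested on 14 counts in 5 of 34 cells.

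A balance was formed per plate as the mean log2(CPM per kb + 1) of the 9 uptake and export genes minus that of the 18 synthesis genes. It was 2.14 ± 0.42 in microglia-like, 0.92 ± 0.18 in endothelial-like and -0.77 ± 0.20 in astrocyte-like cells (SD, n = 2 plates each), 0.40 ± 0.74 in fibroblast-like and 0.07 ± 0.19 in smooth muscle-like cells (n = 6 plates each). The means thus cover different plates. On plates 468 and 469 the fibroblast-like balance was 1.00 and 1.37, beside 0.79 and 1.05 in endothelial-like cells. On plates 043 and 044 the fibroblast-like balance was -0.37 and -0.52. Microglia-like and astrocyte-like cells stood at opposite ends, and both lay outside the range of the smooth muscle-like plates, -0.16 to 0.27. The uptake and export mean was 4.91 ± 0.11 in microglia-like and 4.60 ± 0.04 in astrocyte-like cells. The synthesis mean was further apart, at 2.77 ± 0.31 in microglia-like and 5.37 ± 0.16 in astrocyte-like cells. In smooth muscle-like cells both means were low, 2.91 ± 0.20 for uptake and export and 2.84 ± 0.13 for synthesis. Without Apoe the sign turned in fibroblast-like cells (-0.33) and in smooth muscle-like cells (-0.29), and the endothelial-like balance was 0.31. Single plates gave 0.49 for 21 ependymal-like cells of KO plate 467 and 0.07 for 11 oligodendrocyte-like cells of WT plate 468. Without Apoe these signs turned too, to -0.35 and -0.56.

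**Figure D2:**
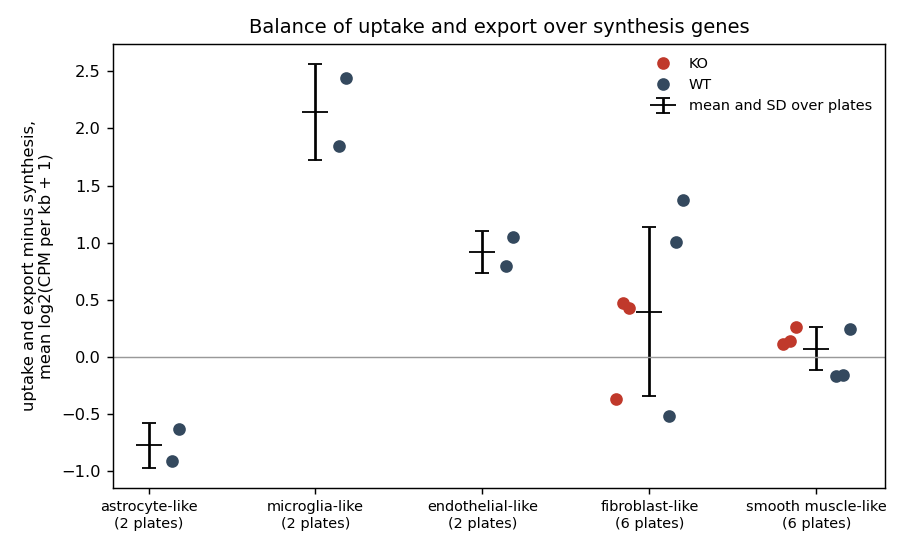
Uptake and export minus synthesis, as a difference of mean log2(CPM per kb + 1), for each plate with at least 10 cells of the class; points are plates (red KO, dark WT), and bars are mean and SD over plates. The 2 microglia-like plates lie at 1.84 and 2.44 and the 2 astrocyte-like plates at -0.91 and -0.63.

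In smooth muscle-like cells, where Notch3 is abundant, 2 members met the size rule between KO and WT, Abca1 and Apoe, both higher in KO. The rule asked for a mean of 10 CPM, a read in 10% of cells, a 2-fold difference and no overlap of plates, and 2.3% of 9427 genes met it, 1.62% higher and 0.679% lower. For this comparison CPM were scaled by TMM factors, and 708 KO and 425 WT cells entered. Abca1 (ENSMUSG00000015243.4, chr4:53030787-53159895 on GRCm38, minus strand) stood at 27.6, 18.9 and 13.0 CPM on the KO plates, against 10.2, 1.48 and 11.6 CPM on the WT plates. The closest plates were 13.0 CPM in KO and 11.6 CPM in WT, and the log2 difference was 1.50 (SD over plates 0.52 in KO and 1.31 in WT). Apoe (ENSMUSG00000002985.16, chr7:19696109-19699188, minus strand) stood at 284, 141 and 151 CPM on the KO plates, against 139, 42.0 and 66.5 CPM on the WT plates. The lowest KO plate and the highest WT plate were almost level, and the log2 difference was 1.31 (SD 0.55 in KO and 0.86 in WT). Both genes stayed far below their levels in fibroblast-like and astrocyte-like cells.

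Few cells carried Abca1. Of the KO cells 11.2% had a read and of the WT cells 9.88%. Thinned to 50000 counts, 6.92% of KO cells had a read, against 5.41% of WT cells. On WT plate 468 it rested on 14 counts in 5 of 34 cells, and without that plate the difference was 0.72. On WT plate 469, 84.0% of its counts came from 1 cell. Apoe was more widespread, with a read in 79.7% of the KO cells and 75.1% of the WT cells, and differed by 0.89 without plate 468. Between plates 043 and 044 alone the differences were 1.34 for Abca1 and 1.02 for Apoe, and on the other 4 plates 1.59 and 1.45. The summed fibroblast marker list was higher on the KO plates, at 312, 330 and 327 CPM, against 220, 296 and 248 CPM on the WT plates, nearly all of it Col1a2, the 1 of its 6 genes at 10 CPM or more. The pericyte list, all 7 of its genes at 10 CPM or more, was also higher on the KO plates, at 4020, 4655 and 3913 CPM, against 3190, 3055 and 3885 CPM on the WT plates, and Apoe stood at 747 CPM in the 16 pericyte-like cells. Its part in the result was not tested. In a comparison chosen after the values were seen, without cells over 100 CPM of other classes' markers, leaving out of that sum 3 genes found on every smooth muscle-like plate, Col1a2 among them, 517 KO and 360 WT cells were left, and the differences were 0.51 for Abca1 and 1.29 for Apoe. Neither then met the rule, and Lss, lower in KO, did. With those 3 genes in the sum, 61 KO and 40 WT cells were left, plate 468 was lost, and the differences were -1.26 for Abca1 and -0.62 for Apoe.

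**Figure D3:**
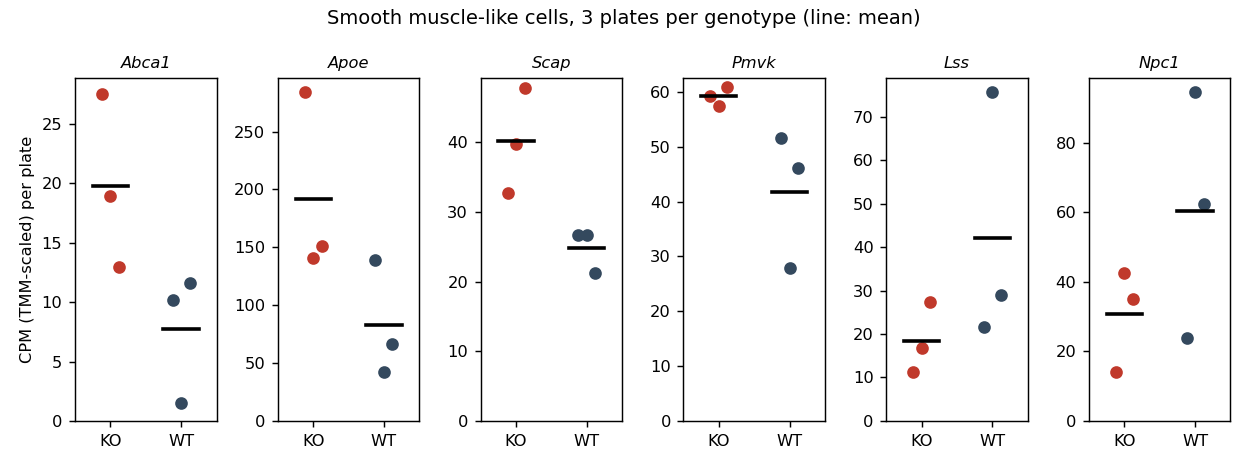
TMM-scaled CPM of 6 members in smooth muscle-like cells, 1 point for each plate (red KO, dark WT) with the mean as a line. Abca1, Apoe, Scap and Pmvk have no overlap between the genotypes, and Lss and Npc1 do.

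The synthesis genes as a list lay near the median of all genes in smooth muscle-like cells. Of 15 with a mean of 10 CPM, 6 were higher and 9 lower in KO, 0 met the size rule, and the median difference was -0.05, beside 0.06 for all 9427 genes. The 3 largest differences were those of Mvk (1.33), Lss (-1.03) and Cyp51 (-0.64), all with overlapping plates. Mvk, the mevalonate kinase, stood at 14.7, 19.0 and 20.1 CPM on the KO plates, against 21.7, 0.635 and 10.3 CPM on the WT plates. Lss, which closes the sterol rings, stood at 11.2, 16.7 and 27.4 CPM on the KO plates, against 21.5, 75.6 and 29.1 CPM on the WT plates. For both genes WT plate 468, with 34 cells, lay farthest from the KO plates. Pmvk was above on every KO plate without reaching 2-fold, at 59.3, 57.5 and 60.8 CPM, against 51.5, 27.8 and 46.1 CPM on the WT plates.

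Scap was likewise above on every KO plate, at 32.7, 39.8 and 47.9 CPM, against 26.7, 26.7 and 21.2 CPM on the WT plates, a log2 difference of 0.66. In all, KO plates lay above WT plates for 4 members and below for 0 of the 27 measured. Over all genes these shares were 4.23% and 3.98%, or 8.21% without overlap. Insig1 was 33.8, 10.2 and 19.1 CPM on the KO plates, against 29.4, 27.8 and 42.4 CPM on the WT plates (-0.76, overlapping). Of the other uptake and export genes Abcg1 (1.45), Stard4 (0.90) and Npc1 (-0.89) had the largest differences, all overlapping. Npc1 stood at 14.1, 42.7 and 35.2 CPM on the KO plates, against 24.0, 94.4 and 62.5 CPM on the WT plates. Abcg1 stood at 15.8, 16.2 and 23.9 CPM on the KO plates, against 18.5, 1.59 and 6.00 CPM on the WT plates. Nr1h2, Nr1h3, Npc2 and Soat1 had differences between -0.09 and -0.06.

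**Figure D4:**
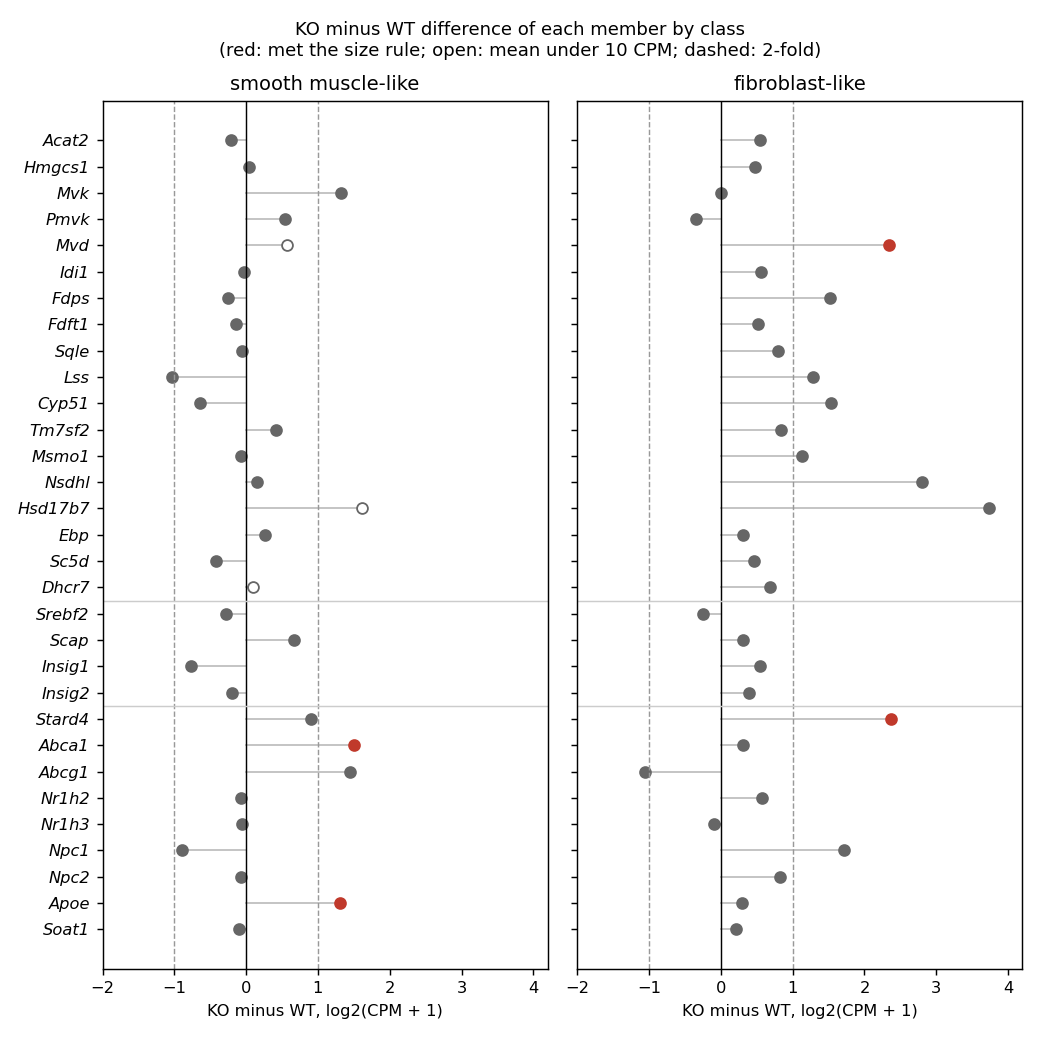
KO minus WT difference in mean log2(CPM + 1) for the 31 members in smooth muscle-like and fibroblast-like cells; red points met the size rule, open points had a mean under 10 CPM and dashed lines mark 2-fold. Abca1 and Apoe are red on the left, Mvd and Stard4 on the right.

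In fibroblast-like cells 2 of 31 measured members met the size rule, Mvd and Stard4, both higher in KO. By the rule 4.91% of 10656 genes were higher and 2.09% lower, so the count of members was near the share of all genes. Mvd (ENSMUSG00000006517.5, chr8:122433601-122443422, minus strand), the decarboxylase that makes the isoprene unit, stood at 18.7, 32.4 and 25.1 CPM on the KO plates, against 9.97, 11.1 and 0 CPM on the WT plates. A count of 0 on WT plate 469 allows up to 0.703 CPM, from 3 counts in 11 cells. Its log2 difference was 2.34 (SD 0.38 in KO and 2.04 in WT), and 1.13 without that plate. On WT plates 044 and 468 all Mvd counts came from 1 cell each, and 15.4% of the KO cells had a read, against 4.76% of the WT cells. Stard4 (ENSMUSG00000024378.9) stood at 27.9, 26.4 and 15.0 CPM on the KO plates, against 7.57, 4.09 and 1.12 CPM on the WT plates, a log2 difference of 2.36 (SD 0.47 in KO and 1.02 in WT). Of the KO cells 19.5% had a read of Stard4, against 21.4% of the WT cells. Thinned to 50000 counts, these shares were 16.3% in KO and 9.52% in WT. With the stricter gate of 200 CPM and 20-fold, Mvd differed by 0.81 and did not meet the rule.

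Of the 18 synthesis genes 17 were higher in KO fibroblast-like cells, with a median of 0.74, beside 0.24 for all 10656 genes and 6921 of them higher. The median was 0.36 without KO plate 043, 0.46 without WT plate 469, 1.15 without WT plate 044 and 0.25 with the gate of 200 CPM and 20-fold. Plates overlapped for all but Mvd. The largest differences were those of Hsd17b7 (3.73) and Nsdhl (2.80). Hsd17b7 stood at 53.4, 44.5 and 23.5 CPM on the KO plates, against 24.7, 0 and 0 CPM on the WT plates. Nsdhl, a decarboxylating sterol dehydrogenase, stood at 101, 34.3 and 86.5 CPM on the KO plates, against 81.6, 8.18 and 0.224 CPM on the WT plates. For both genes WT plate 044 lay within the range of the KO plates, and the other WT plates, with 17 and 11 cells, lay below it. KO plates lay above WT plates for 3 of the 31 members and below for 0, beside 7.66% and 3.49% of all genes. The count above was thus near the share of all genes. Npc2 was the third, at 413, 356 and 393 CPM, against 328, 156 and 204 CPM on the WT plates (0.82). The summed smooth muscle marker list in these cells stood at 795, 778 and 1463 CPM on the KO plates, against 544, 200 and 118 CPM on the WT plates. The choroid plexus list, with 1 of its 4 genes at 10 CPM or more, also did not overlap, at 205, 138 and 206 CPM on the KO plates, against 87.2, 93.7 and 56.7 CPM on the WT plates. The part of both lists was not tested.

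More synthesis genes met the size rule between plates than between genotypes in fibroblast-like cells. On plates 043 and 044, 1 of each genotype and numbered apart from the others, though the labels name no batch, all 18 were higher than on the other 4 plates, with a median difference of 1.23, beside 0.20 for all genes. Within KO the median was 0.94 and within WT 1.59. By the size rule Hmgcs1, Idi1, Fdps, Fdft1, Cyp51, Msmo1, Sc5d and Dhcr7 were higher on these plates, 8 of 18, beside 7.89% of all genes, as was Insig1, and Abca1 was the 1 member lower, beside 5.38%. Hmgcs1, the enzyme that makes HMG-CoA, stood at 491, 165 and 184 CPM on KO plates 043, 467 and 471 and at 380, 80.9 and 180 CPM on WT plates 044, 468 and 469. Msmo1 stood at 352, 118 and 135 CPM on the KO plates and at 200, 101 and 26.0 CPM on the WT plates in the same order. Insig1 stood at 197, 84.6 and 75.4 CPM on the KO plates and at 176, 59.8 and 37.9 CPM on the WT plates. Abca1 ran the other way, at 128, 202 and 252 CPM on the KO plates and at 55.9, 337 and 181 CPM on the WT plates. In smooth muscle-like cells the same split gave a median of 0.56 over 15 synthesis genes, beside 0.25 for all genes, and 0 of them met the size rule, beside 6.1% of genes higher and 4.44% lower. There Insig2 was higher and Npc1 lower on plates 043 and 044.

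**Figure D5:**
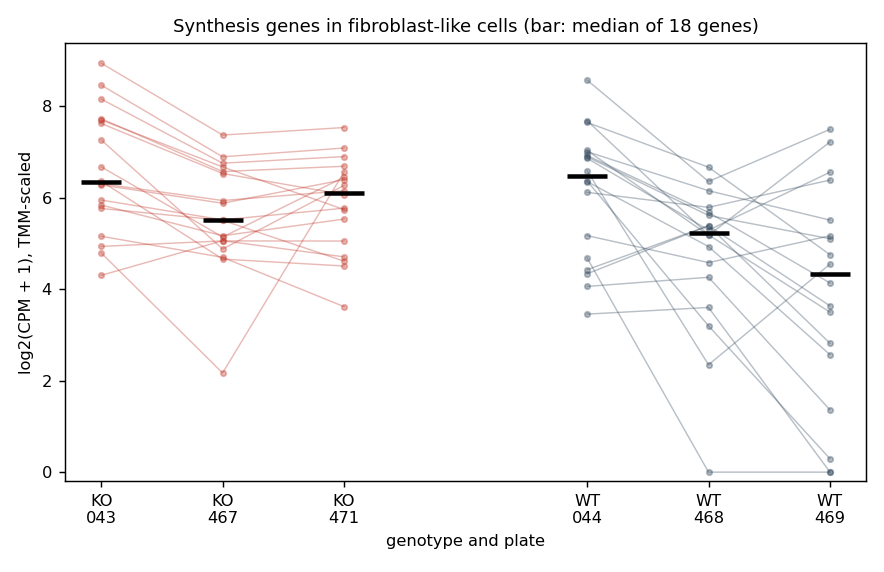
Level of the 18 synthesis genes in fibroblast-like cells, log2(CPM + 1) on each plate (1 line a gene, bars for the median of the genes; red KO, dark WT). The median is highest on KO plate 043 (6.34) and WT plate 044 (6.48) and lowest on WT plate 469 (4.34).

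In endothelial-like cells no comparison of genotypes was made, since the KO plates held 7, 1 and 2 such cells. Summed over plates, 10 KO and 162 WT cells gave the following values, with exact 95% Poisson intervals that cover counting error only. Apoe stood at 418 CPM in KO (397 to 440) and at 1083 CPM in WT (1074 to 1091). Soat1 stood at 52.5 CPM in KO (45.1 to 60.7) and at 6.15 CPM in WT (5.50 to 6.86). Nsdhl had 0 counts in KO (interval up to 1.06 CPM, where 3 counts are 0.865 CPM) and 27.4 CPM in WT, where 17 of 162 cells had a read. Stard4, the member with the clearest endothelial level, stood at 78.7 CPM in KO (69.7 to 88.7) and at 83.4 CPM in WT (80.9 to 85.9). These sums compare the cells found, most of the WT ones from plates 468 and 469 and most of the KO ones from plate 043.

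Further genes of the pathway outside the 31 were described by 2 lists, 34 other genes of sterol handling and 11 of fatty acid synthesis, a pathway driven by the related factor Srebf1. Against smooth muscle-like cells, 14 of the 34 were called higher and 1 lower in astrocyte-like cells, 10 and 3 in microglia-like, 5 and 3 in endothelial-like and 4 and 0 in fibroblast-like cells. The shares over all genes were 19.1% and 17.7% in astrocyte-like, 17.1% and 21.8% in microglia-like, 14.5% and 13.2% in endothelial-like and 6.6% and 5.27% in fibroblast-like cells, so the endothelial-like count was near the background. In astrocyte-like cells Srebf1 was higher by 4.13 ± 0.42 on the log2 scale (SD, n = 2 plates), Lcat, which esterifies cholesterol on lipoproteins, by 5.33 ± 0.58 and the lipoprotein Clu by 5.99 ± 0.97, while the mitochondrial protein Tspo was lower (-3.21 ± 1.00). The sterol hydroxylase Cyp27a1 was higher by 7.76 ± 0.90 in microglia-like cells, and Clu fell below its smooth muscle-like level there (-2.17 ± 0.02). In endothelial-like cells the lipoprotein receptor Lrp8 was higher (7.31 ± 0.49), as was Scarb1 (4.93 ± 2.30), and the receptor Lrp1 was lower (-2.92 ± 0.04). In fibroblast-like cells the lipocalin Apod was higher by 8.53 ± 0.67 (n = 6 plates). Of the 11 fatty acid genes 10 were higher in astrocyte-like cells, among them Scd2 (3.67 ± 0.38) and Fads2 (6.03 ± 0.77). Scd2, Acss2 and Acsl3 were called lower in microglia-like cells, and Fads1 was called higher there. Of the 11, 3 were called higher and 0 lower in fibroblast-like cells (Scd1, Fads1 and Me1). In endothelial-like cells 3 were also higher and 0 lower (Scd1, Fads2 and Acsl3). Fatty acid and sterol synthesis genes were thus both called higher in astrocyte-like cells, though calls of fatty acid genes were not limited to that class.

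Between KO and WT smooth muscle-like cells 0 of the 34 and 0 of the 11 met the size rule, beside 2.3% of 9427 genes. Of the 34, 21 were measured, and KO plates lay above WT plates for 2 and below for 1. Of the 11, 8 were measured, with 0 above and 1 below. Over all genes these shares were 4.23% above and 3.98% below. Srebf1 was above on every KO plate, at 47.9, 67.1 and 47.6 CPM, against 28.4, 28.7 and 30.1 CPM on the WT plates, short of 2-fold. Scd2, a fatty acid desaturase, was below on every KO plate, at 90.4, 106 and 64.9 CPM, against 147, 192 and 141 CPM on the WT plates. In fibroblast-like cells Gramd1a, a sterol transfer protein of the endoplasmic reticulum, met the rule, at 59.2, 67.4 and 85.1 CPM on the KO plates, against 25.5, 35.0 and 17.3 CPM on the WT plates. It was the 1 gene of both lists to do so, beside 4.91% of 10656 genes higher and 2.09% lower.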

How the data were processed

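Read counts for each gene symbol in each cell were deposited by the authors as 1 table of whole numbers whose totals differ between cells; 0 columns were left out. The submitters' processing notes name TopHat2 2.1.1, SAMtools 0.1.18, Subread 1.4.6-p5 (featureCounts) and GRCm38 (mm10). Strand setting and annotation version are not given in the sources used here. Counts were added up within each plate and class holding at least 10 cells. Class levels are library-size CPM, per kb with exon lengths of GENCODE M21, and genotype values are CPM scaled by TMM factors (edgeR 4.0.16, R 4.3.3). Differences are of mean log2(CPM + 1), and the steps were checked on simulated data. No doublet caller was run, since wells held sorted single cells. The members and lists were chosen with earlier results of these data known. The text names members, and genes of 2 further lists that met a size rule or did not overlap. Alternatives covered scaling, pseudocount, filters, gates, plates left out and smooth muscle-like cells split by Cnn1 or Fosb. Reads without molecular identifiers are not independent molecules, so intervals and floors cover counting error only.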

Additional observations from a re-analysis of the deposited data

How the results depend on the processing

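Of 682 member values in smooth muscle-like cells across the alternatives, 638 moved by less than the spread between plates, 42 moved by more and 2 reversed. Of 527 in fibroblast-like cells, 509 moved by less, 18 by more and 0 reversed. The reversed values, Abca1 (-1.26) and Apoe (-0.62), came without cells over 100 CPM of other classes' markers, an alternative chosen after seeing the data that left 101 of 1133 cells. The cause was not tested. There the synthesis median was 1.35, the uptake and export median 0.18 and 6 members met the rule; with the 3 common genes not counted, also chosen after seeing the data, 1 did. The smooth muscle-like count was 0 with the 50 CPM gate, with marker lists and as a mean of cells, 1 with the 200 CPM gate and with Fosb groups weighted equally, 6 on plates 467, 471, 468 and 469 alone, and 1 to 6 with 1 plate left out (6 without 044, 1 without 468, 4 without 469). The uptake and export median was 0.29 with marker lists, 0.66 with Cnn1 and 0.57 with Fosb groups, and -0.12 to 0.21 with 1 plate left out. In fibroblast-like cells the synthesis median was 0.25 with the 200 CPM gate and 0.36 to 1.15 with 1 plate left out. The uptake and export median was 0.72 on plates 043 and 044 alone and 0.27 to 0.58 with 1 plate left out, and the count was 1 with the 200 CPM gate, 6 on plates 043 and 044, 10 on plates 467, 471, 468 and 469 and 2 to 10 with 1 plate left out (4 without 467, 10 without 044). Without exon lengths the balance was -0.41 in astrocyte-like, 2.79 in microglia-like, 1.48 in endothelial-like and 0.47 in smooth muscle-like cells; without Apoe it was -1.55, 1.41, 0.31 and -0.29 in that order. In fibroblast-like cells, with 0.40 as reported, it was 0.85 without exon lengths, -0.33 without Apoe and 0.14 with the 200 CPM gate. It was -0.47 in astrocyte-like cells with a pseudocount of 5 and 0.72 in endothelial-like cells with marker lists. Members past 2-fold against smooth muscle-like cells numbered 3 in endothelial-like cells with the 50 CPM gate, and in fibroblast-like cells 6 with the 200 CPM gate, 5 with marker lists, 16 with at least 20 cells and 3 to 7 with 1 plate left out. Medians and counts not given here moved by less than the spread between plates, or for counts by at most 1.5 times. With at least 20 cells no WT plate gave fibroblast-like values, so that alternative could not be fitted, nor could any for endothelial-like genotypes. No paired analysis was possible because the labels carry no shared animal or day and no test was made.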
